A study of Mus musculus with 8 samples.

Results

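The Hox genes are the homeobox genes of 4 chromosomal clusters, Hoxa, Hoxb, Hoxc and Hoxd, and each gene carries a paralog number that gives its place in its cluster. Members were the genes that the array's annotation calls Hoxa, Hoxb, Hoxc or Hoxd followed by a number, and 31 of the 12393 genes measured met that rule. RNA was measured on 8 arrays: 4 primary soft tissue sarcomas with Braf Ca/Ca (tumour numbers 1, 2, 3 and 5), 2 with Braf Ca/+ (numbers 1 and 2), and 2 muscles, 1 of each Braf genotype, taken from a hind limb that bore no tumour. All groups, the muscles included, carried p53 Fl/Fl. BrafCa is a conditional allele and p53 Fl/Fl stands for floxed copies of p53 on both chromosomes. The tumours were started by injecting an adenovirus that expresses Cre recombinase, so the alleles were changed only in cells that the virus reached and their descendants. The labels give no age or strain, do not say which muscle was taken or where the virus was injected, and do not say that each array came from a separate animal, so a p-value here measures the spread between these samples.

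Hox proteins are transcription factors that bind DNA through a homeodomain, often together with Pbx and Meis proteins. In the embryo the genes are switched on in the order in which they lie along a cluster, so that low paralog numbers mark anterior levels of the body and high numbers mark posterior levels and the distal parts of limbs. Adult fibroblasts and other connective tissue cells keep much of the Hox pattern of the place they come from, and Pitx1 and Tbx4 mark the hind limb while Tbx5 marks the fore limb.

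The clusters were covered unequally. The values used here cover 9 Hoxa genes on chromosome 6, 9 Hoxb genes on chromosome 11, 6 Hoxc genes on chromosome 15 and 7 Hoxd genes on chromosome 2. Values are deposited log2 levels, on which a step of 1 is a 2-fold difference, and levels of different genes cannot be set against each other on these arrays. The 3 measured genes of the Y chromosome had log2 levels from 2.03 to 3.72 on 7 arrays and from 4.61 to 7.65 on the Ca/+ muscle alone. The value 3.72, a level of Uty, was used as the floor, the level below which a signal was not told from none. The other 2 Y-linked genes stayed at or below 2.32 on those 7 arrays, and probe sets may have backgrounds of their own, so the floor is approximate. By that measure 22 members were above the floor on at least 1 array. The other 9, Hoxa2, Hoxa13, Hoxb1, Hoxb5, Hoxb7, Hoxb9, Hoxb13, Hoxd11 and Hoxd12, lay between 1.60 and 3.61 on every array. Their signs and calls enter the counts and medians over all 31 members, but no size is given for any of them.

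The tissue labels were checked against marker genes. The mean log2 level of 10 muscle fibre genes was 6.79 to 8.94 in the sarcomas against 12.83 in Ca/Ca muscle and 12.72 in Ca/+ muscle, and 10 of 10 fell in sarcoma. The mean of 12 fibroblast and mesenchyme genes was 10.10 to 10.58 in the sarcomas against 10.33 in Ca/Ca muscle and 9.18 in Ca/+ muscle, with 3 genes higher and 0 lower. The mean of 9 macrophage genes was 9.36 to 10.42 in the sarcomas, lowest in Ca/Ca sarcoma 5, against 9.95 and 8.74 in the Ca/Ca and Ca/+ muscle. No marker of these 3 lists was at the floor on all arrays. Other cell types also moved with the comparison. Of 5 adipocyte genes 5 fell (list mean 5.44 to 7.55 in sarcomas, against 9.95 and 11.56 in the Ca/Ca and Ca/+ muscle), and of 7 endothelial genes 6 fell (5.62 to 6.69 in sarcomas, against 7.84 and 8.06). Of 6 satellite cell genes 5 fell and 1 rose (5.13 to 5.69 in sarcomas, against 6.41 and 6.51), with 1 of the 6 at the floor on all arrays. Of 8 bone and cartilage genes 4 fell and 1 rose, of 3 tendon genes 1 fell, of 5 skin genes 1 fell, of 3 nerve and Schwann cell genes 1 fell and 1 rose, and of 4 lymphocyte genes 0 passed. The part of these cell types in the Hox differences was not tested.

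**Figure D1:**
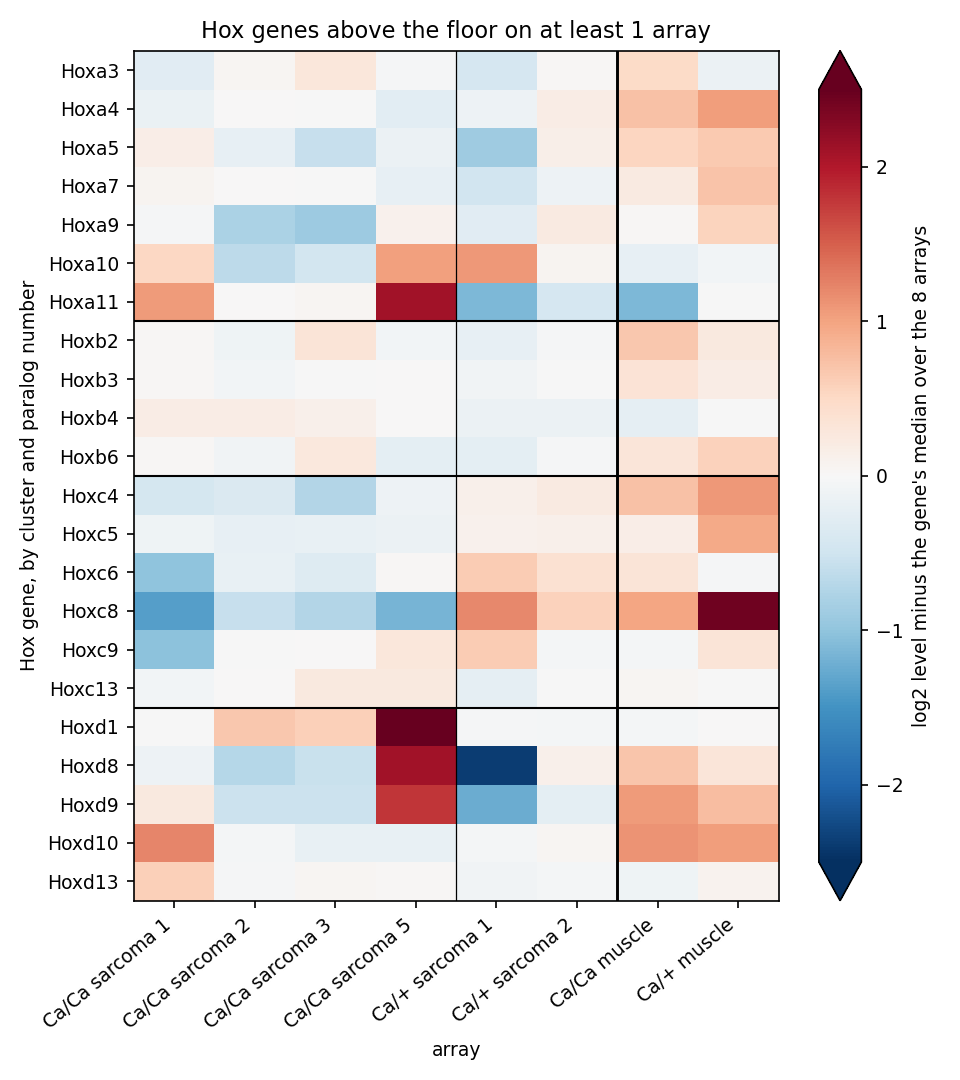
Log2 level of the 22 Hox genes above the floor on at least 1 array, as the difference from each gene's own median over the 8 arrays (colour), with sarcomas left of muscles and genes ordered by cluster and paralog number. The muscles hold the highest values of Hoxa4, Hoxa5, Hoxa7, Hoxc4 and Hoxc5, while Hoxd1, Hoxd8, Hoxd9 and Hoxa11 are highest in Ca/Ca sarcoma 5.

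The design compares the 6 sarcomas with the 2 muscles. Relative to muscle, 4 of the 31 Hox genes fell in sarcoma, Hoxa2, Hoxa4, Hoxa7 and Hoxc4, and 0 rose (limma on all genes, adjusted p under 0.05, and 0 rose at an unadjusted p under 0.05). The share that fell, 12.9%, was close to the 13.2% of all genes that fell, and 13.1% of all genes rose. In 8 members (25.8%) every sarcoma lay below both muscles, against 19% of all genes, and in 0 members did every sarcoma lie above both muscles, against 20% of all genes. The median difference of the 31 members, sarcoma minus muscle, was -0.29 on the log2 scale, beside 0.03 for all genes, and 21 of 31 differences were negative, beside 47.7% over all genes. Over the 22 members above the floor the median was -0.48, with 16 of 22 negative. Of these, Hoxa4 and Hoxc5 were above the floor only in muscle, and Hoxd1 only in Ca/Ca sarcoma 5. Their signs thus follow from the filter, and no value of all genes under that filter is given. The Hox genes are dim on these arrays, with 18 of 31 in the dimmest of 4 equal classes of brightness and 9 in the next. In the dimmest class the median over all genes was -0.07, 62.1% of differences were negative, 8.13% fell and only 0.645% rose. In the next class 52.8% were negative, 17.1% fell and 9.2% rose. Of the Hox genes 11 of 18 and 6 of 9 were negative in these classes. In the third class 4 of 4 were, beside 40.9% of all genes. In bulk tissue, fewer cells of a type and less RNA per cell cannot be told apart. Without the Ca/+ muscle 1 Hox gene fell (Hoxa4), and without Ca/+ sarcoma 2 there were 2 (Hoxa4 and Hoxc4).

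Low paralog numbers, 1 to 4, mark the head and neck end of the embryonic pattern, and 9 such genes were measured, 7 of them above the floor. Of these 9, 3 fell (Hoxa2, Hoxa4 and Hoxc4) and 6 did not pass, with a median of -0.29. The counts by paralog number rest on few genes and stand beside the 13.2% of all genes that fell and the 19% with every sarcoma below both muscles. Hoxc4 had log2 levels of 4.55, 4.63, 4.25 and 4.86 in the Ca/Ca sarcomas 1, 2, 3 and 5 and of 5.12 and 5.21 in the Ca/+ sarcomas, against 5.72 in Ca/Ca muscle and 6.07 in Ca/+ muscle. All 6 sarcomas lay below both muscles without overlap. The difference was -1.12 (SE 0.26, adjusted p = 0.0144), which makes Hoxc4 2.18-fold higher in muscle. Leaving out the Ca/+ muscle ended the call (-0.95, adjusted p = 0.148, and 0.0132 to 0.148 with each array left out in turn). Hoxa4 had levels of 2.90, 3.08, 3.07 and 2.80 in the Ca/Ca sarcomas and 2.95 and 3.25 in the Ca/+ sarcomas, against 3.81 in Ca/Ca muscle and 4.12 in Ca/+ muscle. Every sarcoma was thus below the floor and both muscles were just above it. The difference was -0.96 (SE 0.15, adjusted p = 0.00308, and 0.00412 to 0.0481 with each array left out in turn). The muscle mean stood 1.19-fold above that approximate floor. Since the sarcomas were at the floor and the probe set may have its own background, the size of the fall is not measured. A second, dimmer Hoxa4 probe set was at the floor on all arrays and did not pass (-0.17, adjusted p = 0.311). Hoxa2 passed (adjusted p = 0.0394) with all arrays at the floor, at 1.70 to 2.10 in sarcomas and 2.28 and 2.49 in muscles, so its size is not measured. Its call was lost under cyclic loess, with genotype as a covariate, and without Ca/Ca sarcoma 1, either Ca/+ sarcoma or either muscle. Hoxa3, Hoxb2, Hoxb3 and Hoxb4 did not pass, with differences from -0.47 (Hoxb2) to 0.16 (Hoxb4).

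Paralog numbers 5 to 8 mark the trunk. Of 9 such genes 7 were above the floor, 1 fell (Hoxa7) and 8 did not pass, with a median difference of -0.59. Hoxa7 had log2 levels of 5.17, 5.11, 5.09 and 4.90 in the Ca/Ca sarcomas and 4.63 and 4.97 in the Ca/+ sarcomas, against 5.33 in Ca/Ca muscle and 5.81 in Ca/+ muscle. The groups did not overlap, but the nearest sarcoma and muscle values were closer together than the muscles were to each other. The difference was -0.59 (SE 0.19, adjusted p = 0.0478). Leaving out any 1 of the 6 sarcomas, or the Ca/+ muscle, ended the call (adjusted p 0.0418 to 0.404 over the 8 arrays left out in turn, below the threshold only without the Ca/Ca muscle). Hoxa5 (-0.85, adjusted p = 0.0559), Hoxc5 (adjusted p = 0.057, with every sarcoma below the floor) and Hoxb6 (adjusted p = 0.0588, with only 1 sarcoma above the floor) also had all sarcomas below both muscles and did not pass. Hoxc8, which helps to set thoracic identity in the mouse, had the largest difference of the 31 members and did not pass. Its levels were 3.32, 4.12, 3.95 and 3.53 in the Ca/Ca sarcomas and 5.90 and 5.26 in the Ca/+ sarcomas, against 5.67 in Ca/Ca muscle and 7.13 in Ca/+ muscle. The Ca/+ sarcomas overlapped the Ca/Ca muscle. Ca/Ca sarcomas 1 and 5 were below the floor, so the size of the difference rests in part on background values. The difference was -2.05 (SE 0.71, adjusted p = 0.0662, and 0.00434 to 0.443 over 18 alternative settings), and it passed with genotype as a covariate (-1.76, adjusted p = 0.00434). Hoxc6 (-0.23) and Hoxd8 (-0.75) did not pass.

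Paralog numbers 9 to 13 mark the lumbar to tail end of the body and the limb segments. Of 13 such genes 8 were above the floor, and 0 fell or rose. In 0 of 13 did every sarcoma lie below both muscles, and their median difference was -0.09. Hoxa9, a gene of the lumbar and upper limb level, ranged from 6.34 to 7.46 in sarcomas, against 7.27 and 7.80 in the Ca/Ca and Ca/+ muscle. Hoxa10, which helps to shape the thigh and upper arm, ranged from 3.997 to 5.75 in sarcomas, against 4.45 and 4.60 in the Ca/Ca and Ca/+ muscle. Hoxc9, of the lower thoracic level, ranged from 5.51 to 7.17 in sarcomas, against 6.48 and 6.86 in the Ca/Ca and Ca/+ muscle. All 3 had sarcomas on both sides of a muscle value. Hoxc13, a gene of hair and nail, had a difference of 0.01 with an interval of -0.34 to 0.36, and Hoxd13, a gene of the digits, had 0.10 with an interval of -0.35 to 0.55 (95% intervals). For Hoxc13 and Hoxd13 the sign of the difference turned with the scaling of the arrays. Hoxd10 (adjusted p = 0.0825, with 5 of 6 sarcomas below the floor), Hoxd9 (-1.005, adjusted p = 0.314), Hoxa11 (0.85, adjusted p = 0.463) and Hoxa10 (0.39, adjusted p = 0.595) did not pass.

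**Figure D2:**
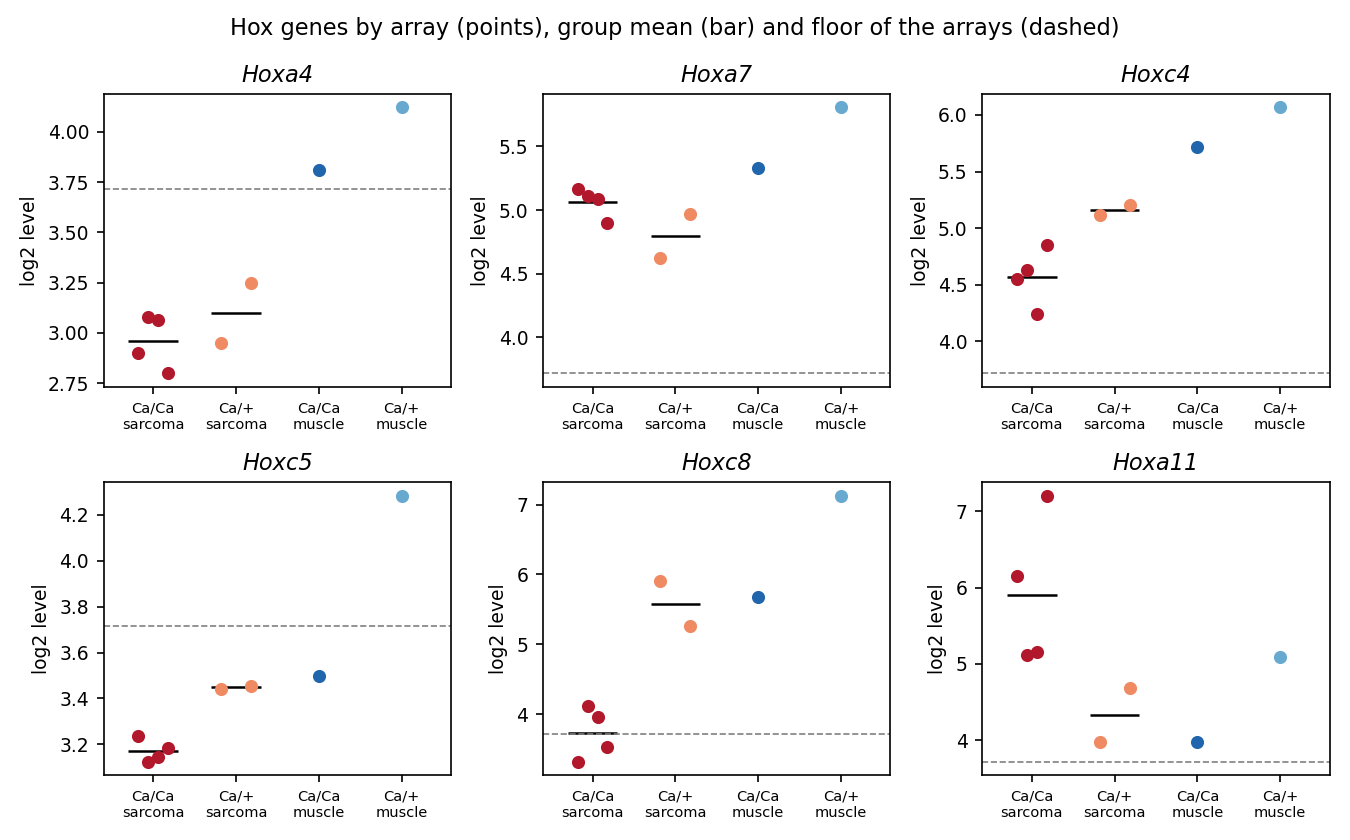
Log2 level on each array (points) of Hoxa4, Hoxa7, Hoxc4, Hoxc5, Hoxc8 and Hoxa11, with Ca/Ca and Ca/+ sarcomas left of Ca/Ca and Ca/+ muscle, bars for the mean of each sarcoma group and a dashed line for the floor of 3.72. The sarcomas of Hoxa4, Hoxa7, Hoxc4 and Hoxc5 all lie below both muscles, while those of Hoxc8 and Hoxa11 overlap a muscle.

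**Figure D3:**
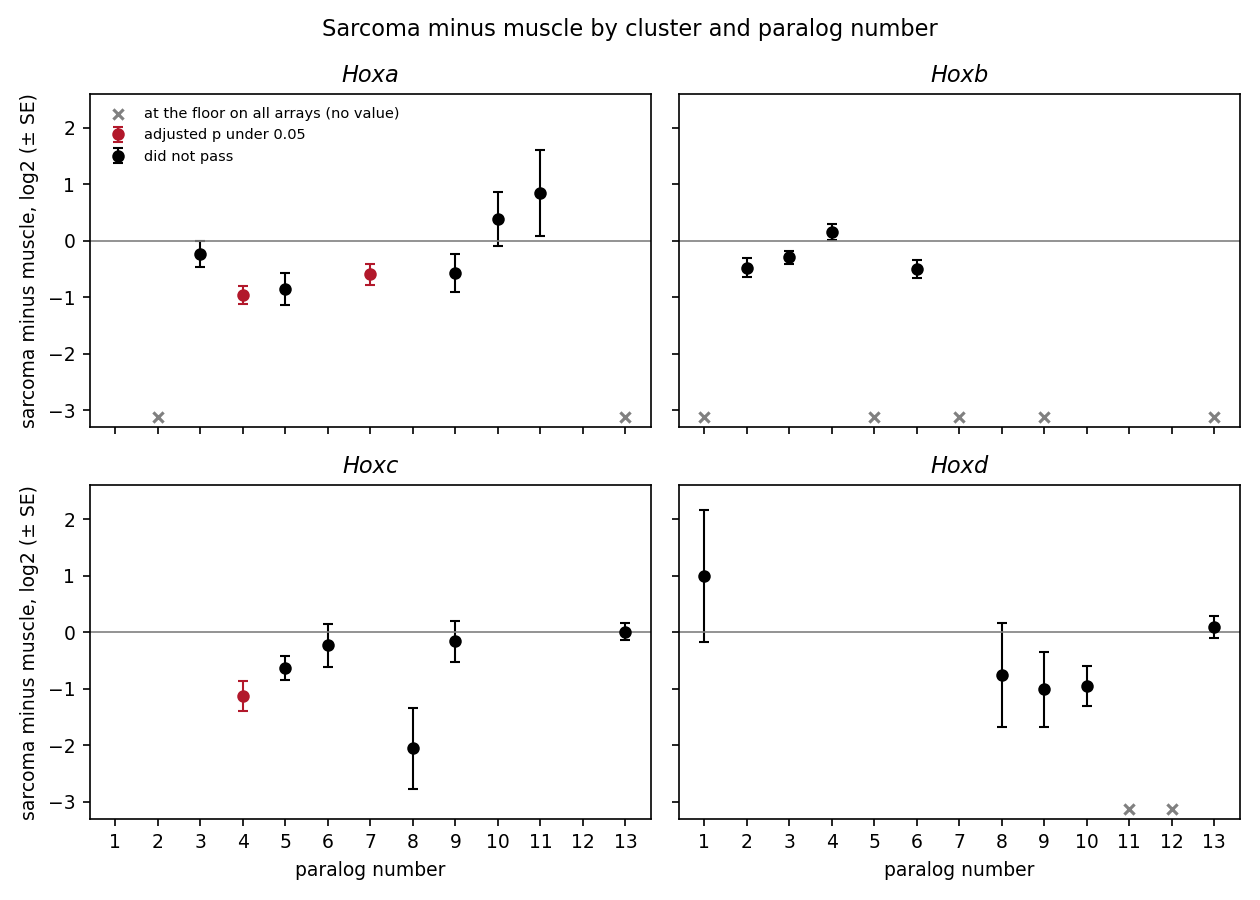
Sarcoma minus muscle on the log2 scale (points, with the standard error of the fit) for the 22 members above the floor, by paralog number in the 4 clusters, and crosses for the 9 members at the floor, which have no value. The 3 plotted members past the threshold (Hoxa4, Hoxa7 and Hoxc4) have paralog numbers of 7 or less.

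By cluster, 3 of 9 Hoxa genes, 0 of 9 Hoxb genes, 1 of 6 Hoxc genes and 0 of 7 Hoxd genes fell, beside 13.2% of all genes. The 3 Hoxa genes include Hoxa2, at the floor on all arrays, and Hoxa7, which lost its call in 12 of 18 alternatives. The median differences of the members above the floor were -0.57 for 7 Hoxa, -0.38 for 4 Hoxb, -0.43 for 6 Hoxc and -0.75 for 5 Hoxd genes. Among these members Hoxa4, Hoxc5 and Hoxd1 were above the floor in 1 tissue only, so the filter itself bears on these medians. Over all measured members they were -0.46 for 9 Hoxa, -0.29 for 9 Hoxb, -0.43 for 6 Hoxc and 0.01 for 7 Hoxd genes, so that the place of Hoxd turned with the members counted. The clusters were not compared with each other by a test.

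The sarcomas also differed among themselves, most of all in Hoxd1, Hoxd8 and Hoxa11. Over the 6 sarcomas the SD of all genes had a median of 0.24 and a 95th percentile of 0.91, and 5 Hox genes were above that percentile: Hoxd1 (1.84), Hoxd8 (1.45), Hoxa11 (1.14), Hoxd9 (1.04) and Hoxc8 (1.02). At the other end, Hoxb3 had an SD of 0.05, and its rank was 12369 of 12393 genes. All 4 Hoxb genes above the floor had an SD of 0.19 or less over the sarcomas. Hoxb1 had the widest range of the Hoxb genes, 0.78, at 1.60 to 2.37 in sarcomas, and was at the floor on every array.

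Each sarcoma was set against the median of the 6 sarcomas, and members more than 2-fold away were counted. Ca/Ca sarcoma 5 had 4 such members of 31 (12.9%), Hoxa11, Hoxd1, Hoxd8 and Hoxd9, all higher, while 9.02% of all genes were that far from the median on its array. Ca/+ sarcoma 1 had 3 (9.68%), with Hoxc8 higher and Hoxa11 and Hoxd8 lower, against 4.42% of all genes. Ca/Ca sarcoma 1 had 3 (9.68%), with Hoxa11 and Hoxd10 higher and Hoxc9 lower, against 2.24% of all genes. Ca/+ sarcoma 2 had 1 (3.23%), Hoxc8, higher, against 1.48% of all genes. Ca/Ca sarcomas 2 and 3 had 0 each, against 1.11% and 2.2% of all genes. These counts are descriptions of single arrays with no test.

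The Hoxd genes showed where along a cluster the sarcomas parted, and Hoxd8, Hoxd9 and Hoxd10 are described here after their values were seen. Hoxd1, the gene at the anterior end of the cluster, had a log2 level of 6.87 in Ca/Ca sarcoma 5 and of 2.19, 2.88 and 2.80 in Ca/Ca sarcomas 1, 2 and 3, with 2.16 and 2.15 in the Ca/+ sarcomas, against 2.16 in Ca/Ca muscle and 2.20 in Ca/+ muscle. Hoxd1 was thus above the floor on 1 array of 8. Hoxd8, a trunk gene, had levels of 7.27, 6.68, 6.85 and 9.50 in the Ca/Ca sarcomas and 5.04 and 7.53 in the Ca/+ sarcomas, against 8.09 in Ca/Ca muscle and 7.71 in Ca/+ muscle. It was highest in Ca/Ca sarcoma 5 and lowest in Ca/+ sarcoma 1, with both muscles between them. Hoxd9, a gene of the lumbar level and the upper limb, had levels of 6.66, 5.86, 5.88 and 8.19 in the Ca/Ca sarcomas and 5.17 and 6.16 in the Ca/+ sarcomas, against 7.46 in Ca/Ca muscle and 7.19 in Ca/+ muscle. Only Ca/Ca sarcoma 5 lay above the muscles. The adjusted p was 0.314 with all 6 sarcomas and 0.0225 to 0.6 with each array left out in turn, lowest without that sarcoma, which was seen to differ, so the lower value does not support a fall. Hoxd10, the next gene along and one that helps to pattern the motor nerves of the hind limb in the mouse, did not share this. It had levels of 4.32, 3.06, 2.92 and 2.93 in the Ca/Ca sarcomas and 3.06 and 3.15 in the Ca/+ sarcomas, against 4.23 in Ca/Ca muscle and 4.15 in Ca/+ muscle. Ca/Ca sarcoma 1 was at the level of muscle and the other 5 were below the floor, so no size is given for the 5. The adjusted p was 0.0825 with all 6 sarcomas and 0.00127 to 0.279 with each array left out in turn, lowest without Ca/Ca sarcoma 1, again the array that was seen to differ. Hoxd11 and Hoxd12 were at the floor on all arrays, and Hoxd13 was between 4.09 and 4.78 in sarcomas, highest in Ca/Ca sarcoma 1, against 4.06 and 4.27 in the Ca/Ca and Ca/+ muscle. In Ca/Ca sarcoma 5 the macrophage and lymphocyte gene means were the lowest of the 6 sarcomas (9.36 against 9.80 to 10.42, and 5.85 against 6.48 to 8.30 in the other 5), and their part in these values was not tested.

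**Figure D4:**
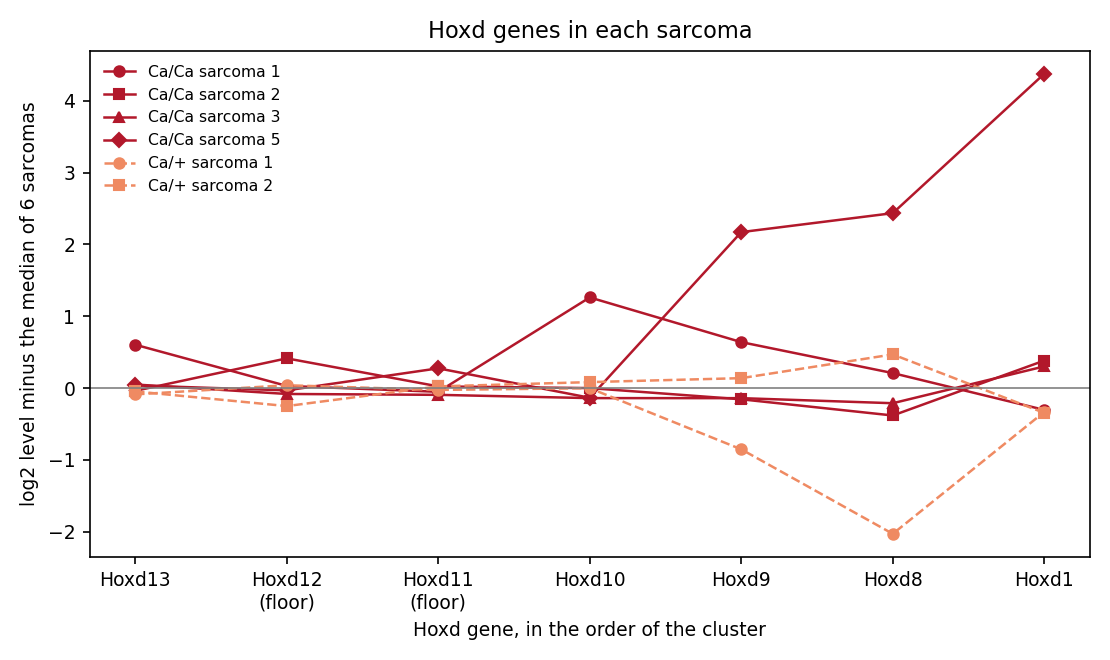
Log2 level of the 7 measured Hoxd genes in each of the 6 sarcomas minus the median of the 6 sarcomas, in the order of the cluster, with Hoxd3 and Hoxd4 of the stretch between Hoxd8 and Hoxd1 not analysed. Ca/Ca sarcoma 5 departs from the others at Hoxd9 (2.17), Hoxd8 (2.44) and Hoxd1 (4.38), Ca/+ sarcoma 1 at Hoxd8 (-2.03) and Ca/Ca sarcoma 1 at Hoxd10 (1.26).

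The start regions of these 4 genes of the cluster are shown because Hoxd1, Hoxd8 and Hoxd9 were all highest in Ca/Ca sarcoma 5 while Hoxd10 was not. Each is the RefSeq window of GRCm38.p6 from 250 bases before to 50 bases after the start, on the plus strand, written 5′ to 3′. The windows were searched on both strands for 3 motifs: TGATTNAT, which Hox and Pbx proteins bind together, AGGTCA, the half-site of retinoic acid receptors, and TTTATNG, a core bound by Cdx and posterior Hox proteins. Capitals mark the matches, AGGTCA or its reverse complement TGACCT.
Hoxd10, chr2:74691641-74691940: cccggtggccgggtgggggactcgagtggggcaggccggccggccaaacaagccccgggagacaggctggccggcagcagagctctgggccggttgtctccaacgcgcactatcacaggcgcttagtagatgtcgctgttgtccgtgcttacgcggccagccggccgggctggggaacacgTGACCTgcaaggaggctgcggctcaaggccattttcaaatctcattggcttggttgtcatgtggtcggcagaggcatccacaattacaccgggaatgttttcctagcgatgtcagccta
Hoxd9, chr2:74697513-74697812: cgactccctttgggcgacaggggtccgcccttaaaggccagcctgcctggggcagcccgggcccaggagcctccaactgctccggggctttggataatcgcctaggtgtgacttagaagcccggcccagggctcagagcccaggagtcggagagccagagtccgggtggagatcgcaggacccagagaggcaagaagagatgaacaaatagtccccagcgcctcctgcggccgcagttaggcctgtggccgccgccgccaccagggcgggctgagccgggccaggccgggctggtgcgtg
Hoxd8, chr2:74704365-74704664: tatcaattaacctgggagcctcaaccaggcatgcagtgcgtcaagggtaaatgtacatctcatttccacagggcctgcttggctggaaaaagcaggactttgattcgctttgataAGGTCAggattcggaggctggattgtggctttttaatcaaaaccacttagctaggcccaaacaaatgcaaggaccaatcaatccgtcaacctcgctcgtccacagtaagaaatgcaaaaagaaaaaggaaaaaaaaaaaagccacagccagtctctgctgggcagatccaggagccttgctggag
Hoxd1, chr2:74762730-74763029: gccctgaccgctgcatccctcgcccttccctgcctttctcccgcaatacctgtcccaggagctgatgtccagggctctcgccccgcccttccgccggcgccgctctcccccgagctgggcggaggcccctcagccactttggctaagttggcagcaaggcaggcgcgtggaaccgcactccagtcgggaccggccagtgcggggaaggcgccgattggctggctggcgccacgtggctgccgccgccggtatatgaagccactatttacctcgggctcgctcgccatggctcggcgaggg

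Hoxd10 and Hoxd8 each held 1 AGGTCA match, and Hoxd9 and Hoxd1 held none of the 3 motifs. Over all 32851 windows of the table, 16.3% held AGGTCA, 3.22% TGATTNAT and 10.9% TTTATNG. The 4 windows differed in their CG dinucleotides, with 22 in Hoxd10, 20 in Hoxd9, 6 in Hoxd8 and 29 in Hoxd1. The 20 windows of the 18 members in the table had a median of 14.5, beside 7 over all windows. A match or its absence describes these letters only.

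Hoxa11, a gene of the forearm and lower leg segment of the limb, had the widest range of the Hoxa genes over the sarcomas. Its levels were 6.16, 5.12, 5.15 and 7.21 in the Ca/Ca sarcomas and 3.98 and 4.68 in the Ca/+ sarcomas, against 3.98 in Ca/Ca muscle and 5.09 in Ca/+ muscle. The 4 Ca/Ca sarcomas lay above both Ca/+ sarcomas and above both muscles, and the Ca/+ sarcomas lay between the muscles or level with the lower one. Hoxa10, beside it in the cluster, was highest in Ca/+ sarcoma 1 (5.75) and Ca/Ca sarcoma 5 (5.68), and lowest in Ca/Ca sarcoma 2 (3.997).

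The titles also separate the sarcomas by Braf genotype. Between the 4 Ca/Ca and the 2 Ca/+ sarcomas 0 Hox genes passed, and 0% of all genes did (limma, adjusted p under 0.05, lowest adjusted p 0.196). At an unadjusted p under 0.05 there were 4 Hox genes (12.9%), Hoxc8, Hoxc4, Hoxc6 and Hoxa11, against 7.84% of all genes. The 4 Ca/Ca sarcomas lay below both Ca/+ sarcomas in 4 members (12.9%), Hoxc4, Hoxc5, Hoxc6 and Hoxc8, against 11.3% of all genes. They lay above both in 5 members (16.1%), Hoxa11, Hoxb4, Hoxb7, Hoxd1 and Hoxd13, against 9.68% of all genes. Hoxb7 and Hoxc5 were at the floor in all 6 sarcomas, and Hoxd1 in all but Ca/Ca sarcoma 5. Their order is thus wholly or partly one of background values. The largest difference, Ca/Ca minus Ca/+, was that of Hoxc8, whose levels are given above. It averaged 3.73 ± 0.37 (SD, n = 4) in Ca/Ca sarcomas and 5.58 ± 0.45 (SD, n = 2) in Ca/+ sarcomas, a difference of -1.85 (SE 0.29, 95% interval -2.56 to -1.14). Since Hoxc8 was below the floor in Ca/Ca sarcomas 1 and 5, these sizes rest in part on background values. Its unadjusted limma p of 0.000619 was number 14 in order among 12393 genes and its adjusted p was 0.535 (0.358 to 0.946 over 15 alternative settings).

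Hoxc6 had log2 levels of 5.09, 5.93, 5.78 and 6.13 in the Ca/Ca sarcomas and 6.75 and 6.48 in the Ca/+ sarcomas. The difference was -0.88 (SE 0.30, adjusted p = 0.624). Its other probe sets gave -0.90 (limma adjusted p = 0.634) and -0.20 (limma adjusted p = 0.787). In the latter the genotypes overlapped, with Ca/Ca sarcomas at 5.52 to 5.81 and Ca/+ sarcomas at 6.10 and 5.64. Hoxc4 differed by -0.59 (SE 0.19, adjusted p = 0.618), and Hoxc5 was at the floor in all 6 sarcomas (adjusted p = 0.634). Of the 6 Hoxc genes 5 had a negative difference, the exception being Hoxc13 (0.22), while 5 of 5 Hoxd and 4 of 4 Hoxb genes above the floor had a positive one, beside 49.9% of all genes. These signs rest in part on single tumours. For Hoxd1, Ca/Ca sarcoma 5 alone was above the floor, Hoxd10 turned to -0.13 without Ca/Ca sarcoma 1, and Hoxd8 had 1.29 with all sarcomas and 0.0443 without Ca/+ sarcoma 1. The median over the 31 members was 0.13, beside -0.0005 over all genes. No adjusted p of a Hox gene was under 0.05 in any of the 16 alternative settings.

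The muscles had 1 array for each genotype, so their values have no test. Of the 31 members 2 (6.45%) were more than 2-fold apart, Hoxc8 and Hoxa11, against 7.02% of all genes. Hoxc8 was 1.46 lower on the log2 scale in the Ca/Ca muscle (5.67) than in the Ca/+ muscle (7.13). Hoxa11 was 1.11 lower in the Ca/Ca muscle (3.98) than in the Ca/+ muscle (5.09). Hoxc5, the third in size, was at the floor in the Ca/Ca muscle (3.499) and above it in the Ca/+ muscle (4.28). Genotype and the Y-linked RNA of the Ca/+ muscle cannot be told apart here. The list means of other cell types also differed. They were 9.95 in the Ca/Ca and 11.56 in the Ca/+ muscle for adipocyte, 7.53 and 8.42 for lymphocyte, and 10.33 and 9.18 for fibroblast genes. The mean of 3 nerve and Schwann cell genes was 7.21 and 4.67. That gap lay mostly in Nefl (9.05 and 3.13, against 9.28 to 12.06 in sarcomas), while Sox10 had 5.83 and 5.68. Over all genes the Ca/Ca muscle correlated with the sarcomas at 0.899 to 0.932 and the Ca/+ muscle at 0.8595 to 0.889. The part of these differences between the muscles in the Hoxc8 and Hoxa11 values was not tested. Within 1 genotype the Hoxc8 difference from muscle, sarcoma minus muscle, was -1.94 for Ca/Ca (sarcomas 1 and 5 below the floor) and -1.55 for Ca/+ arrays. That of Hoxa11 was 1.93 for Ca/Ca and -0.76 for Ca/+ arrays. Whether these differ between genotypes was not tested.

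Hox proteins act with partners of the TALE homeodomain class. Of 9 partner and cofactor genes measured, 2 rose in sarcoma, 1 fell and 6 did not pass, with a median of 0.18. The counts of this list and of the 4 lists that follow stand beside the 13.1% of all genes that rose and the 13.2% that fell. Pbx3, a direct partner, had log2 levels of 6.23, 6.64, 6.24 and 6.41 in the Ca/Ca sarcomas and 7.24 and 6.80 in the Ca/+ sarcomas, against 5.69 in Ca/Ca muscle and 4.76 in Ca/+ muscle. All sarcomas lay above both muscles, a difference of 1.37 (SE 0.32, adjusted p = 0.0159). Pknox1, a relative of the Meis proteins, differed by 0.73 (adjusted p = 0.0255). Pbxip1, which binds Pbx proteins and blocks them, had a log2 difference of -1.81 (SE 0.30, adjusted p = 0.00359) and fell. The calls of Pbx3 (adjusted p = 0.189) and Pknox1 (0.134) were lost without the Ca/+ muscle. Meis1 and Meis2 did not pass, with 0.18 and 0.96.

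Of 32 limb position and limb patterning genes, 4 rose, 5 fell and 23 did not pass, near the shares of all genes, with a median of -0.02, and 9 were at the floor on all arrays. Those that fell were Ptch1 (-0.93, adjusted p = 0.0182), Hand2 (-0.60, 0.0476), Sall4 (-0.49, 0.0394), Pax3 (0.028, at the floor on all arrays) and Tbx5. Hand2, Sall4 and Pax3 did not pass under cyclic loess. Pitx1, the hind limb selector, had log2 levels of 6.08, 5.97, 6.10 and 7.07 in the Ca/Ca sarcomas and 6.68 and 6.14 in the Ca/+ sarcomas, against 4.93 in Ca/Ca muscle and 5.33 in Ca/+ muscle. Every sarcoma lay above both muscles, and Ca/Ca sarcoma 5 was the highest. The difference was 1.21 (SE 0.30, adjusted p = 0.0201), and its second probe set gave 1.77 (adjusted p = 0.00696). The call was lost without the Ca/Ca muscle (adjusted p = 0.139) and without the Ca/+ muscle (0.0795), within a range of 0.0096 to 0.179 over 18 alternative settings. Tbx4, which acts with Pitx1 in the hind limb, was close to the floor on all arrays, at 3.57 to 4.12 in sarcomas against 3.74 and 4.12 in the Ca/Ca and Ca/+ muscle, and did not pass (-0.11, adjusted p = 0.701). Tbx5, the fore limb gene, was below the floor in all 6 sarcomas (3.08 to 3.34) and at 3.66 and 3.77 in the Ca/Ca and Ca/+ muscle, and passed (adjusted p = 0.0205) with no size measured. Its second probe set did not pass (adjusted p = 0.593), and the call was lost with the mean of probe sets (0.117), without the Ca/Ca muscle (0.0636) and without the Ca/+ muscle (0.175). Grem1, a BMP antagonist of the limb bud, was at 9.13 to 11.03 in sarcomas against 7.68 and 4.58 in the Ca/Ca and Ca/+ muscle, and rose by 4.11 (SE 0.75, adjusted p = 0.00519). Prrx2 (1.88, adjusted p = 0.0278), a homeobox gene of limb mesenchyme, and Tbx3 (1.09, adjusted p = 0.0218), of the limb margins, rose too, though neither passed once the Ca/+ muscle was left out. Without that muscle 1 of the 32 passed.

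**Figure D5:**
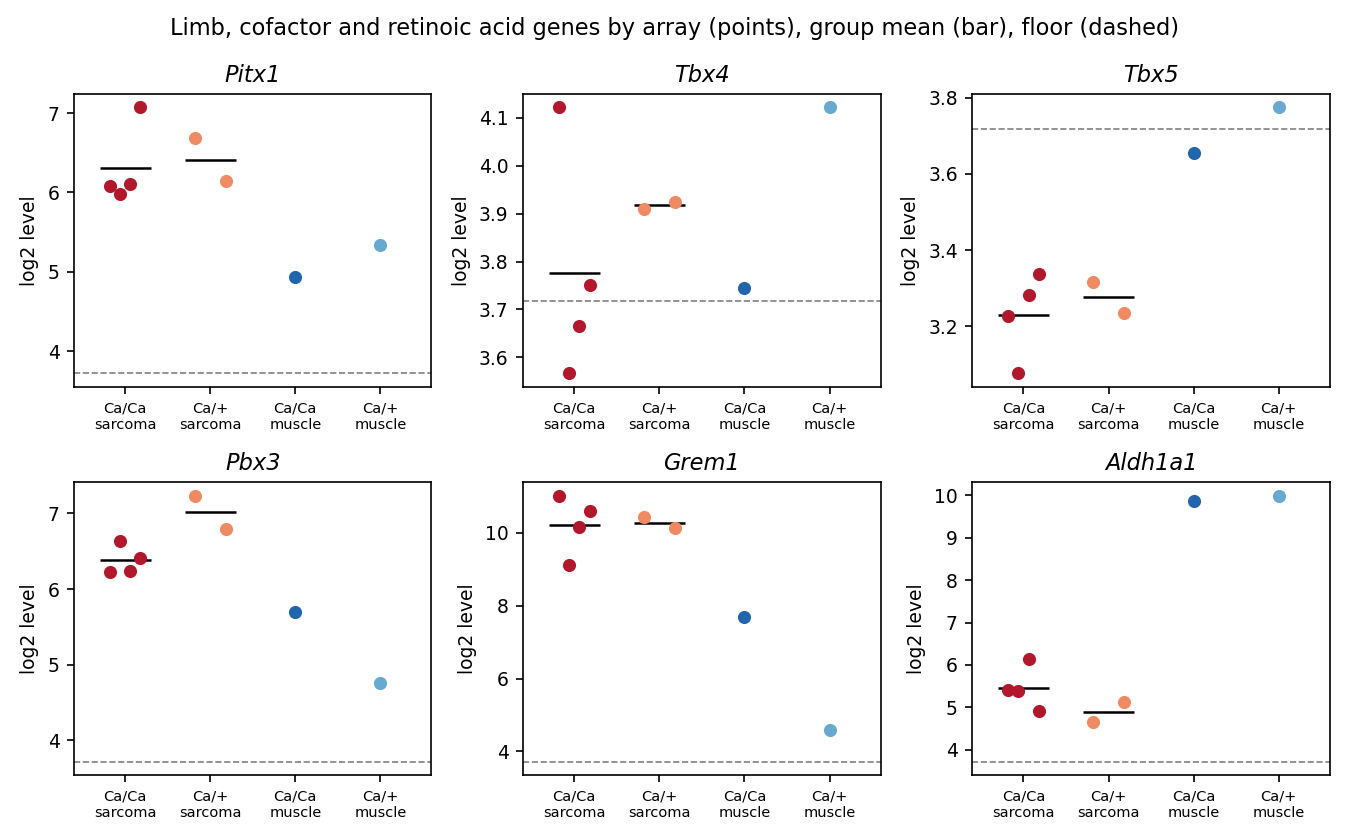
Log2 level on each array (points) of Pitx1, Tbx4, Tbx5, Pbx3, Grem1 and Aldh1a1, with Ca/Ca and Ca/+ sarcomas left of Ca/Ca and Ca/+ muscle, bars for the mean of each sarcoma group and a dashed line for the floor of 3.72. Pitx1, Pbx3 and Grem1 lie higher in all 6 sarcomas than in both muscles, Aldh1a1 lies lower, and Tbx4 and Tbx5 lie near the floor.

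Retinoic acid switches on Hox genes in the embryo. Of 17 genes that make, carry, sense or remove it, 1 rose, 3 fell and 13 did not pass, with a median of -0.23. Aldh1a1, which makes retinoic acid, was at 4.65 to 6.13 in sarcomas against 9.87 and 9.999 in the Ca/Ca and Ca/+ muscle, and fell, with a log2 difference of -4.66 (SE 0.34, adjusted p = 6.2e-05). The receptors Rxrg (fell by 3.23, adjusted p = 1.4e-05) and Rxra (fell by 1.30, adjusted p = 0.000369) fell too. Crabp1, which binds retinoic acid in the cytoplasm, was at 10.72 to 12.73 in sarcomas against 9.78 and 4.36 in the Ca/Ca and Ca/+ muscle, a difference of 4.91 (SE 1.17, adjusted p = 0.0163) that did not pass without the Ca/+ muscle (2.20, adjusted p = 0.0734). Of 24 chromatin regulators of Hox clusters, 4 rose, 1 fell and 19 did not pass, with a median of 0.22. Ezh2, which sets the silencing mark of Polycomb on Hox clusters, rose by 1.07 (adjusted p = 0.0248), and Phc2 (1.02, adjusted p = 0.00928) and Rnf2 (0.85, adjusted p = 0.0201), of the other Polycomb complex, rose as well. Ash2l, the remaining gene that rose, differed by 0.72 (adjusted p = 0.00979) and did not pass with the mean of its probe sets (0.129). Mllt3, a partner of the Mll proteins, fell by 1.30 (adjusted p = 0.0419). Without the Ca/+ muscle 0 of the 24 passed. Of 18 genes that neighbour the clusters or encode Cdx and related factors, Cbx5 rose (0.76, adjusted p = 0.0378), Nfe2l1 (fell by 0.86, adjusted p = 0.0192) and Atp5g3 (fell by 0.62, adjusted p = 0.012) fell and 15 did not pass, with a median of 0.10. Without either muscle 0 of the 18 passed.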

How the data were processed

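The deposited values were log2 expression levels per probe set, made by the authors with RMA per the submitters' processing notes, which corrects background and gives the arrays 1 shared distribution. The version of RMA and whether the 8 arrays were processed together are not given in the sources used here, nor are scan dates or batches. The log2 scale was read from the values, and array medians were 5.79 to 5.90. Control probe sets (64) were left out, and the 20380 probe sets with 1 gene symbol gave 12393 genes, each by its probe set with the highest mean. Of the 37 Hox probe sets with 1 symbol, 31 were kept, and 3 with several symbols were not used. Signal over background, and the number of arrays, limit the precision.

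The limma package (3.58.1, functions lmFit and eBayes, under R 4.3.3) tested every gene, with Benjamini-Hochberg adjustment over all genes at 0.05, checked on simulated data. Sarcoma against muscle used 8 arrays, Ca/Ca against Ca/+ the 6 sarcomas. Counts and medians of gene groups have no test. Plots were made in matplotlib 3.10.9 under Python 3.11.15. Values on every array were to be given for members past the threshold, for the member with the widest range over sarcomas in each cluster and for the 3 members with the largest difference between muscles, and for companion lists at most 4 members past the threshold plus Pitx1, Tbx4 and Tbx5. The members and the lists were chosen with earlier results of these data known. Alternatives changed the probe set, the scaling, the filter on dim genes, the variance model and the arrays used.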

Additional observations from a re-analysis of the deposited data

Results flagged for a closer look

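Within groups of 4 or 6 sarcomas, the gap between the highest or lowest array and its neighbour was set against the whole range of the group by Dixon's test. Each of the 22 members above the floor was tested over the 6 sarcomas and over the 4 Ca/Ca sarcomas among them, so the 44 tests are not separate, and the 6 that stood out belong to 3 genes. Chance gives about 1 in 20 for separate tests. The share of all genes that this test would mark is not given here, so the count is not a result about Hox genes. Hoxd1 was highest in Ca/Ca sarcoma 5, with a gap of 0.846 of the range over 6 sarcomas and 0.853 over the 4 Ca/Ca sarcomas. Hoxd10 was highest in Ca/Ca sarcoma 1, with 0.841 over 6 sarcomas and 0.9005 over 4. Hoxd13 was also highest in Ca/Ca sarcoma 1, with 0.801 over 6 sarcomas and 0.862 over 4.

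In 5 of the 22 members every Ca/Ca sarcoma lay on one side of the Ca/Ca muscle and every Ca/+ sarcoma on the opposite side of the Ca/+ muscle, which was so for 5.78% of all genes. The difference between genotypes was not tested. Sarcoma minus muscle in Ca/Ca less the same in Ca/+ arrays was 2.68 for Hoxa11, 0.49 for Hoxb4, -1.21 for Hoxc6, 1.57 for Hoxd1 and 0.44 for Hoxd13 on the log2 scale. For Hoxd1 all arrays but Ca/Ca sarcoma 5 were at the floor. The Hoxc6 pattern held only on the probe set used. On an alternative Hoxc6 probe set, Ca/Ca sarcoma 5 (5.999) lay above the Ca/Ca muscle (5.956). On the remaining Hoxc6 probe set every Ca/Ca sarcoma (5.52 to 5.81) lay above the Ca/Ca muscle (5.29). There the Ca/+ sarcomas (6.10 and 5.64) lay on both sides of the Ca/+ muscle (5.77). The other Hoxb4 probe set was below the floor on every array.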

How the results depend on the processing

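Over the 22 members above the floor, 397 sarcoma against muscle results under an alternative gave 324 with the same direction and side of the threshold, 18 that lost and 29 that gained a call, and 26 that turned sign. For genotype, 323 of 331 were the same and 8 turned sign. Of 31 Hox genes, 4 fell, and 2 did under cyclic loess, 10 under housekeeping centring, 12 under ribosomal protein centring, 8 with array weights, 2 without the dimmest 25% of genes, 0 without the dimmest 50% (13 and 4 members left) and 0 with Ca/Ca or Ca/+ arrays only. Leaving out each array in turn, with a lone muscle assumed to vary like the sarcomas, gave 1 to 5, with Hoxa4 in every one, and 0 rose under any of the 19 alternatives. Housekeeping centring moved the median of all genes by -0.22 and ribosomal protein centring by -0.25, so that 19.3% and 19.8% of all genes fell and 7.94% and 5.61% rose, in place of 13.2% and 13.1%. The Hox median was -0.51 and -0.54 under these, -0.47 and -0.66 without the dimmest 25% and 50%. Over all genes called, sarcoma against muscle, 3256 passed, 601 with Ca/Ca and 1287 with Ca/+ arrays only, and 1195 to 3451 with 1 array left out. Between genotypes 0 to 1 gene passed with 1 sarcoma left out, and the Hox median was 0.0395 under cyclic loess, 0.22 with housekeeping and 0.0184 with ribosomal protein centring, 0.0392 and 0.31 without the dimmest 25% and 50%, and 0.0145 to 0.19 with 1 sarcoma left out.

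With tumour number as a replicate block the Hox median between genotypes was 0.0635 and 0 genes passed. Nothing in the labels pairs the tumours but a number. Same-numbered sarcomas had deviations that correlated at -0.189 and 0.293. With 2 Ca/+ sarcomas the cross-numbered values must mirror these (0.189 and -0.293), so the correlations cannot show or exclude pairing. Of the companion lists, the cofactors had 3 calls, and 1 under ribosomal protein centring, without the dimmest 50% and with Ca/+ arrays only, 0 with Ca/Ca arrays only, and 1 to 3 with 1 array left out. The limb list had 9, and 2 without the dimmest 50%, 0 and 1 with Ca/Ca and Ca/+ arrays only, and 1 to 10. Cluster neighbours had 3, and 5 with array weights, 0 with Ca/Ca or Ca/+ arrays only, and 0 to 5. Retinoic acid genes had 4, and 7 with genotype as a covariate. Chromatin regulators had 5, and 2 under ribosomal protein centring, 0 with Ca/Ca or Ca/+ arrays only, and 0 to 7.

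Signs that turned for sarcoma minus muscle were the following, and the cause was not tested. With Ca/+ arrays only they were Hoxa11 (-0.76), Hoxb4 (-0.13), Hoxc6 (0.53), Hoxc13 (-0.10), Hoxd1 (-0.0448) and Hoxd13 (-0.16). With housekeeping centring and then with ribosomal protein centring they were Hoxb4 (-0.0591 and -0.0856), Hoxc13 (-0.21 and -0.23) and Hoxd13 (-0.12 and -0.15). Hoxc13 also turned with array weights (-0.0219) and genotype as a covariate (-0.017). Other probe sets gave -0.12 for Hoxb4 and 0.0776 and 0.20 for Hoxc6, and the mean of probe sets 0.0175 for Hoxc6. With 1 array left out the difference ran from -0.54 to 0.0752 for Hoxa3, -0.35 to 0.0384 for Hoxc9, -0.0311 to 0.0617 for Hoxc13 and -0.0035 to 0.20 for Hoxd13. Between genotypes Hoxb3 turned under cyclic loess (-0.0269) and ribosomal protein centring (-0.0708). With 1 sarcoma left out the genotype difference ran from -0.026 to 0.43 for Hoxa3, -0.29 to 0.0087 for Hoxa4, -0.34 to 0.69 for Hoxa5, -0.98 to 0.0418 for Hoxa10, -0.0016 to 0.0801 for Hoxb3 and -0.13 to 0.33 for Hoxd10. Dim signal limits all members near the floor.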

Other observations

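Other genes were highest in the same tumour as Hoxd1, and these were chosen after their values were seen. Isl1, a homeobox gene of the hind limb field, had a log2 level of 6.43 in Ca/Ca sarcoma 5 and of 4.05 to 5.42 in the other 5 sarcomas, against 3.66 and 3.81 in the Ca/Ca and Ca/+ muscle. Its difference from muscle did not pass (1.11, adjusted p = 0.224). Fgf10, a signal of limb outgrowth, had 7.31 in that sarcoma and 4.61 to 5.78 in the other 5, against 4.53 and 5.92 in the Ca/Ca and Ca/+ muscle. Irx3 was at 9.23 in Ca/Ca sarcoma 5 and 8.56 in Ca/+ sarcoma 1 and at 5.83 to 6.59 in the other 4, against 6.30 and 6.92 in the Ca/Ca and Ca/+ muscle. Isl1, Fgf10 and Irx3 are members of the limb list, and other members of that list were lowest in this sarcoma. Shox2 had 4.95 there against 6.02 to 7.09 in the other 5, and Tbx15 had 5.41 against 6.25 to 7.74. On the array of Ca/Ca sarcoma 5, 9.02% of all genes were more than 2-fold from the sarcoma median, the largest share of the 6. The transcript antisense to Hoxa11, Hoxa11os, had 4.37 in Ca/Ca sarcoma 5 and 3.20 to 3.97 in the other 5, against 3.26 and 3.71 in the Ca/Ca and Ca/+ muscle.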
